A study of Mus musculus with 7 samples.

Results

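The miRNAs named miR-297, miR-466, miR-467 and miR-669 with a letter form a large array of repeated, closely related hairpins, most of them in the mouse gene Sfmbt2. They were found on a NanoString mouse miRNA panel by their names, as 33 probes of 566 miRNA probes, 4 of which read 2 or 3 of these miRNAs together. Sfmbt2 encodes a polycomb group protein, a class of chromatin repressors, and is imprinted in the mouse, with the paternal copy expressed in extraembryonic tissue. The array in its intron is found in rodents and is needed for normal growth of the mouse placenta. Processed miRNAs pair with messenger RNAs mainly through the seed, bases 2 to 8, so members that share a seed can act on overlapping targets. Little is established about the array in adult brain.

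The panel (nCounter, version 1.3) counts color-coded probes without amplification. Neocortex samples 1 to 3 were layers II-IV of adult wild-type CD1 mice at postnatal day 60. Tumor samples 1 to 4 were astrocytomas of CD1 mice with the hGFAP-HaV12-Ras transgene, an activated Ras under the human promoter of the astrocyte gene GFAP, taken at postnatal days 65, 104, 125 and 134. Females gave neocortex 2 and tumor 2, and males gave the remaining 5 samples. The human GFAP promoter is also active in neural progenitors, and the brain region of the tumors is not given, so transgene, region, tissue makeup and age cannot be told apart. The 4 tumors were taken at different ages, which points to separate animals, and neocortex 2 differs in sex from neocortex 1 and 3. The labels do not say whether neocortex 1 and 3, both male and of 1 age, came from separate animals, so the spread between those samples may be technical. Of 3 neuronal miRNAs, miR-124 had log2 values of 12.21 to 13.07 in neocortex and 11.74 to 12.0 in tumor, whereas the groups overlapped for miR-128 and miR-137.

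The gene table places most of the array where its name says. Sfmbt2 spans chr2:10370440-10595253 (GRCm38.p6), and 71 genes named for the 4 miRNA families lie inside it, within 51617 bases from position 10466663 to 10518279. Another 10 genes of these names lie outside Sfmbt2. Of the 33 probes, 23 read miRNAs whose genes all lie inside Sfmbt2, and 3 read miRNAs with genes both inside and elsewhere. For 2 more probes, those that include miR-466a, a gene inside Sfmbt2 was matched for the partner miRNA and none for miR-466a. The genes of the last 5, miR-466i, miR-466j, miR-466k, miR-467f and miR-467g, lie outside it, so the name Sfmbt2 array does not hold for them. miR-669a has 12 genes inside Sfmbt2 and miR-467a has 10, whereas miR-297c, miR-466g and miR-669f have 1 gene each.

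Mature sequences of 5 of the 39 miRNA names on these probes were matched in the RefSeq table (GRCm38.p6). They are shown because they display the simple repeats in these families. All 5 are placed outside Sfmbt2 here, so they do not stand for the members inside it. Each is written 5′ to 3′ with the seed in capitals. miR-466k and miR-467f were measured in every sample, miR-467h shares a probe with miR-669d and miR-669l, miR-467g was listed in 3 tumors, and miR-466j was at 0 in all samples.
miR-466k, chr3:85467396-85467418, plus strand: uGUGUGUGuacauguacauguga
miR-466j, chr10:60960802-60960824, plus strand: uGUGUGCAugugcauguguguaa
miR-467h, chr9:115381898-115381919, plus strand: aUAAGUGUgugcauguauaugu
miR-467f, chr11:69635419-69635439, minus strand: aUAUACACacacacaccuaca
miR-467g, chr5:34732872-34732892, minus strand: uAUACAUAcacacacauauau

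No seed is shared among these 5 sequences, but all 5 carry a simple repeat. The first 3 hold runs of alternating U and G of 9, 7 and 7 bases, and miR-467f and miR-467g hold runs of alternating A and C of 12 and 9 bases. A run of at least 7 bases of either kind occurs in 19 of the 1679 mature mouse miRNAs of the table (1.13%), and the median longest run is 3 bases. The length of 7 was taken from the shortest run of these 5, so all 5 reach it by choice. Only 5 of the 39 names on the array probes were matched in the table, so the share may leave out other members. miR-467f and miR-467g share a stretch of 11 identical bases, as do miR-466j and miR-467h. miR-466k holds a stretch of 10 bases complementary to miR-467f and another of 10 complementary to miR-467g. Members with such long stretches in common may not be read apart by a hybridization probe, and cross-reaction was not tested.

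Low values need care on this panel. The deposited values are log2 values scaled per sample by the authors, and a probe below the cutoff of a sample has the value 0 in it. That cutoff lay at 4.65, 4.88 and 5.21 in neocortex 1 to 3 and at 3.64, 3.24, 3.78 and 3.09 in tumor 1 to 4, because 1 count was worth 1.79 to 4.63 scaled units in neocortex and 0.530 to 0.961 in tumor. Recovered miRNA counts totalled 23578 to 60826 in neocortex and 117602 to 208088 in tumor. The highest positive-control probe, a spike-in, was counted 10283 to 14888 times in the neocortex samples and 13102 to 16898 times in the tumors, without a significant difference (2-sided exact permutation p = 0.229). Averaged over 5 positive-control probes, the deposited log2 value changed by -1.71 in tumor (2-sided exact permutation p = 0.0286). No p of this test can be smaller with 3 and 4 samples. As a floor for specific signal, 44 background probes were used: 33 for viral miRNAs, 8 negative controls and 3 for plant or worm miRNAs. The highest of them had 24, 18 and 12 counts in neocortex 1 to 3 and 30, 33, 25 and 46 counts in tumor 1 to 4. Of the 33 viral probes, neocortex 1 to 3 had 1, 1 and 2 above the cutoff, whereas tumor 1 to 4 had 18, 15, 10 and 18 (p = 0.0286 by the same exact permutation test).

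The array made up a small part of the miRNA counts. Its probes together held 455, 321 and 240 counts in neocortex 1 to 3, which was 0.748%, 0.868% and 1.02% of the miRNA counts of each sample. In tumor 1 to 4 they held 847, 968, 841 and 1209 counts, or 0.720%, 0.635%, 0.654% and 0.581%. These sums leave out probes under the cutoff. A single probe, miR-297c, gave 39.3% to 49.2% of the array's counts in neocortex and 19.4% to 26.6% in tumor.

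Most probes were at 0 in neocortex. Of the 33, 19, 21 and 22 were at 0 in neocortex 1 to 3, against 12, 10, 14 and 10 in tumor 1 to 4. On the authors' scaling the cutoff was higher in neocortex, so the larger number at 0 there does not show a lower level on that scaling. In recovered counts the cutoff was 14, 10 and 8 in neocortex 1 to 3 and 13, 13, 16 and 16 in tumor 1 to 4. On the count scale the cutoff was thus not generally higher in neocortex, but total miRNA counts were lower there. The numbers at 0 are therefore not read as a direction. Across all samples 9 probes were listed in all 7 and 10 were at 0 in all 7, which are 27.3% and 30.3% of the array, beside 34.8% and 18.9% of all 566 miRNA probes. The 10 were miR-297b-3p, miR-297b-5p, the probe of miR-466a-5p and miR-466e-5p, miR-466d-5p, miR-466f-5p, miR-466h, miR-466i, miR-466j, miR-467d and miR-669i. miR-466h, known to promote apoptosis in mouse and hamster cells, was thus under the cutoff in every sample. Among the 16 probes of the miR-290 to miR-295 and miR-302 and miR-367 clusters, which are typical of embryonic stem cells and placenta, 1 was listed in all 7 samples and 8 were at 0 in all 7.

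**Figure D1:**
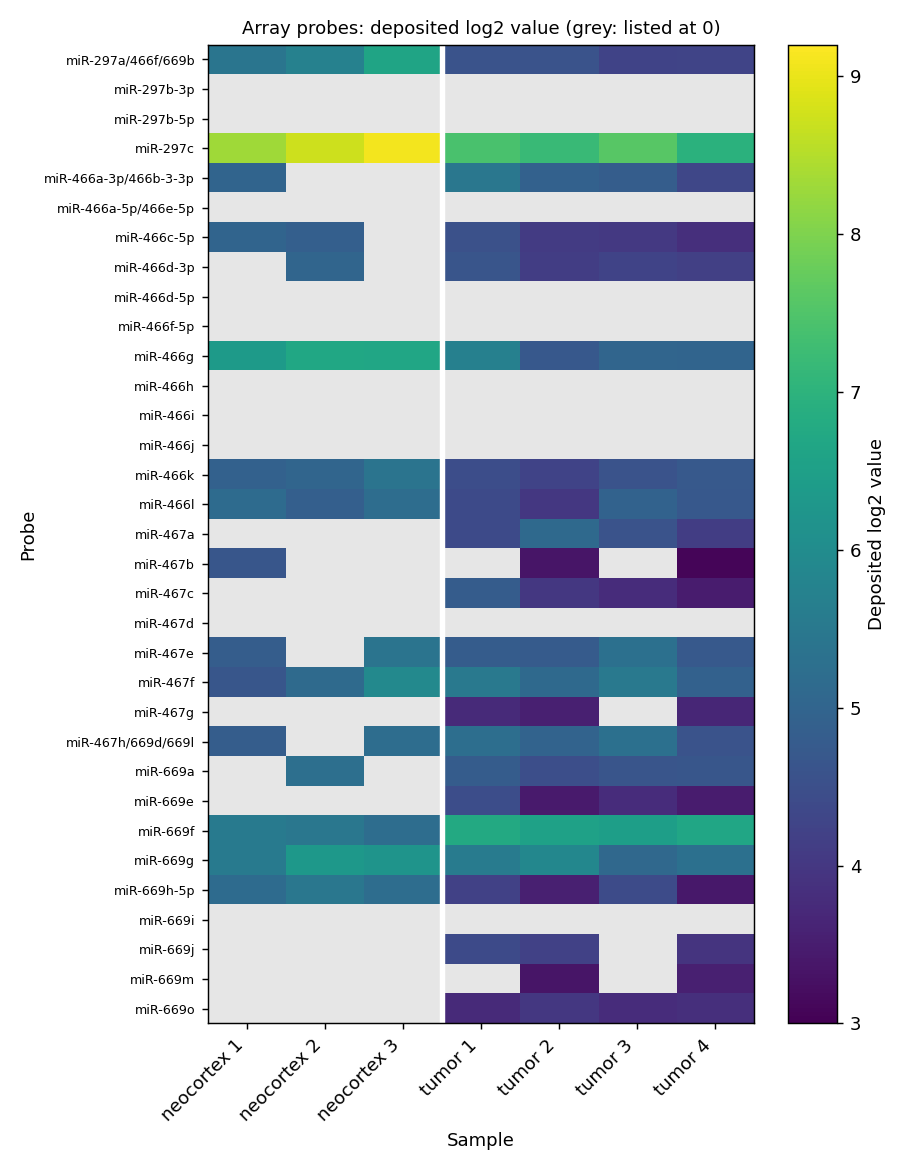
Deposited log2 value (color) of each of the 33 array probes (rows) in the 3 neocortex and 4 tumor samples (columns), with values listed at 0 in grey. 9 probes have a value in all 7 samples, 10 are at 0 in all 7, and miR-297c has the highest values in every sample.

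By family, 2 of 4 miR-297 probes, 3 of 12 miR-466 probes, 1 of 8 miR-467 probes and 3 of 9 miR-669 probes were listed in all 7 samples. Above the highest background probe in all 7 samples were 3 probes of the array (9.09%), miR-297c, miR-466g and miR-669g, beside 143 of all 566 miRNA probes (25.3%). miR-669f and miR-467f were above it in all 4 tumors and in 1 neocortex sample each, neocortex 1 and neocortex 3.

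Astrocytoma was set against normal gray matter to find miRNAs that differ. As a 0 stands for any level under a cutoff that differs between samples, all values under the highest cutoff, 5.21 on the log2 scale, were raised to it before the test. miRNAs above it in at least 3 samples were tested in limma. On the authors' scaling miR-669f was called higher in tumor, and miR-297c, 2.69-fold, and miR-466g were called lower. No exact fold is given for miR-669f, which was not above the highest background probe in 2 neocortex samples, or for miR-466g, which had 3 of 4 tumor values under the shared cutoff. With the floor raised to the highest background probe, 5.8, an alternative chosen after seeing the data, their differences were 0.82 and -0.78 on the log2 scale. At that floor all neocortex values of miR-669f and all tumor values of miR-466g were raised to it. Each probe then passed the filter only through the group where it was higher. The direction was thus fixed in advance, and these 2 differences carry no support for the calls. With the shared cutoff, 2 of the 6 array probes tested were lower and 1 higher at a Benjamini-Hochberg adjusted p under 0.05. Of all 204 miRNAs tested, 33 (16.2%) were lower and 23 (11.3%) higher, so with 6 probes the array's counts are not set apart from the background. The median difference was -0.62 over these 6 probes and -0.19 over all miRNAs tested, and the 6 are a minority of the array that passed the filter on low values. The direction of the 2 lower calls turned with the scaling, as given below.

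miR-669f was the member called higher. Its gene lies at chr2:10467229-10467349, near the start of the array inside Sfmbt2. Its log2 values were 5.54, 5.46 and 5.21 in neocortex 1 to 3 and 6.76, 6.54, 6.48 and 6.68 in tumor 1 to 4. All 4 tumors lay above all 3 neocortex samples, and the tumor samples lay close together. The log2 means were 5.40 ± 0.17 (SD, n = 3) and 6.62 ± 0.13 (SD, n = 4), a difference of 1.21 (SE 0.16, limma adjusted p = 0.0023 after Benjamini-Hochberg correction). In recovered counts it had 26, 15 and 8 in neocortex and 113, 128, 104 and 193 in tumor. The neocortex counts stand beside 24, 18 and 12 counts of the negative control NEG_D in the same samples, so miR-669f was above that control in neocortex 1 and below it in neocortex 2 and 3. In tumor NEG_D had 14, 0, 21 and 21 counts, where 0 is a value under the cutoff. The difference of miR-669f stayed above 0 in each of the 20 alternatives that tested it, from 0.25 scaled on the housekeeping mRNA probes (Actb, Gapdh and Rpl19; adjusted p = 0.36 in limma, Benjamini-Hochberg) to 2.80 scaled on the positive-control probes. With the floor at the highest background probe that direction was the only one possible.

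miR-297c had the most counts of the array in every sample. Its gene lies at chr2:10509016-10509113, inside Sfmbt2. The log2 values were 8.32, 8.73 and 9.10 in neocortex 1 to 3 and 7.41, 7.19, 7.59 and 6.96 in tumor 1 to 4. Every tumor lay below every neocortex sample. The means were 8.72 ± 0.39 (SD, n = 3) and 7.29 ± 0.27 (SD, n = 4), a difference of -1.43 (SE 0.23, limma adjusted p = 0.0035 after Benjamini-Hochberg correction). The recovered counts did not show this, with 179, 144 and 118 in neocortex and 177, 201, 224 and 235 in tumor. Their mean was higher in tumor (209 against 147), but the groups overlapped, as neocortex 1 lay above tumor 1. The spike-in POS_D, added in equal amount to all samples, had 228, 158 and 135 counts in neocortex and 153, 192, 202 and 224 in tumor. Scaled on the positive-control probes the difference of miR-297c was 0.28 (adjusted p = 0.11 in limma, Benjamini-Hochberg), and scaled on the housekeeping mRNA probes it was -2.39.

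miR-466g resembled miR-297c in its values across the samples. Its gene lies at chr2:10514595-10514674, toward the far end of the array. It was measured at log2 values of 6.39, 6.69 and 6.67 in neocortex 1 to 3 and 5.70, 4.71, 5.03 and 4.99 in tumor 1 to 4. The groups did not overlap, and 3 of the 4 tumor values were under the shared cutoff. With the cutoff the difference was -1.25 (SE 0.18, limma adjusted p = 0.0023 after Benjamini-Hochberg correction), and with the values as listed it was -1.48 (SE 0.27, adjusted p = 0.015 by the same test). The counts were 47, 35 and 22 in neocortex and 54, 36, 38 and 60 in tumor, so the counts of the groups overlapped. Scaled on the positive-control probes miR-466g lay at 0.24 (adjusted p = 0.33 in limma, Benjamini-Hochberg).

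**Figure D2:**
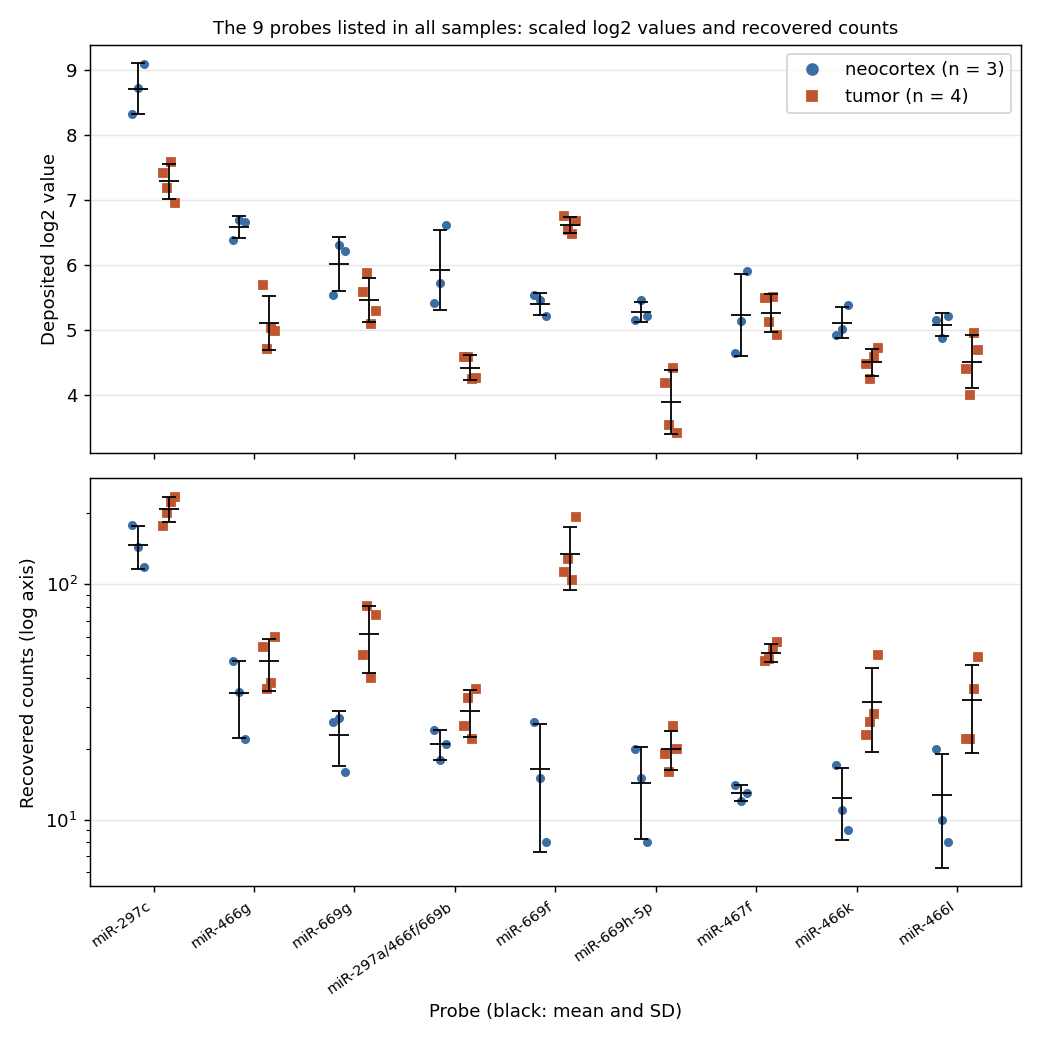
Deposited log2 values (upper panel) and recovered counts on a log axis (lower panel) of the 9 array probes listed in all 7 samples, with neocortex samples as circles, tumor samples as squares, and mean and SD in black. miR-669f is higher in tumor in both panels, whereas miR-297c and miR-466g are lower in tumor in the upper panel and not in the lower one.

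The other 3 tested probes did not pass with the shared cutoff on the authors' scaling. The shared probe of miR-297a, miR-466f and miR-669b had log2 values of 5.42, 5.73 and 6.61 in neocortex and 4.59, 4.59, 4.24 and 4.26 in tumor. The groups did not overlap, and all 4 tumor values were under the shared cutoff, so its difference of -0.71 (SE 0.27, limma adjusted p = 0.082 after Benjamini-Hochberg correction) is smaller than the -1.50 of the listed values. The fit on listed values called this probe lower (limma adjusted p = 0.025 after Benjamini-Hochberg correction). It was also called by the same test with a pseudocount of 30 in place of the floor (-0.83, adjusted p = 0.017), with median scaling (-0.87, adjusted p = 0.021) and on the housekeeping mRNA probes (-0.84, adjusted p = 0.011). Its counts, 24, 18 and 21 in neocortex and 25, 33, 22 and 36 in tumor, were at or under the highest background probe in every sample but neocortex 3. On the authors' scaling the probe passed the filter on low values through its neocortex samples only. For both reasons its calls are not read as a change of these miRNAs. miR-669g, from a gene at chr2:10477150-10477272, had log2 values of 5.54, 6.31 and 6.21 in neocortex and 5.59, 5.88, 5.10 and 5.29 in tumor. These overlapped, and the difference was -0.53 (SE 0.25, limma adjusted p = 0.15 after Benjamini-Hochberg correction). Without neocortex 1 the difference of miR-669g was -0.77 and passed (adjusted p = 0.032 by the same test).

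miR-467f, whose gene lies on chromosome 11 and not in Sfmbt2, had log2 values of 4.65, 5.14 and 5.91 in neocortex and 5.50, 5.13, 5.51 and 4.92 in tumor. Neocortex held both the lowest and the highest value, and the difference was -0.09 (SE 0.22, limma adjusted p = 0.75 after Benjamini-Hochberg correction). In counts the groups were apart, with 14, 12 and 13 in neocortex and 47, 48, 53 and 57 in tumor. Scaled on the positive-control probes it was higher in tumor by 1.61 (adjusted p = 0.00012 in limma, Benjamini-Hochberg).

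The remaining 3 probes listed in all samples were too low to test with the shared cutoff. miR-669h-5p had log2 values of 5.16, 5.46 and 5.21 in neocortex and 4.19, 3.54, 4.42 and 3.41 in tumor, with 20, 15 and 8 and 19, 16, 25 and 20 counts. It was under the highest background probe in every sample. miR-466k, from chromosome 3, had log2 values of 4.93, 5.02 and 5.38 in neocortex and 4.47, 4.24, 4.59 and 4.73 in tumor. miR-466l, which in mouse macrophages is known to raise the cytokine IL-10 by shielding its messenger RNA, had values of 5.16, 4.88 and 5.21 and of 4.40, 4.0, 4.95 and 4.70. For miR-669h-5p and miR-466k every tumor lay below every neocortex sample, and for miR-466l tumor 3 overlapped neocortex 2. In recovered counts miR-466k and miR-466l ran the other way. miR-466k had 17, 11 and 9 counts in neocortex and 23, 26, 28 and 50 in tumor, and miR-466l had 20, 10 and 8 in neocortex and 22, 22, 36 and 49 in tumor. The counts of both were under the highest background probe in each neocortex sample and in tumor 1 and 2. In limma both were called higher in tumor on the positive-control probes, as were 259 of all 348 miRNAs tested. With unscaled counts both were also called higher, as were 251 of 327, so these calls do not set them apart.

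With the values as listed, where 0 entered the fit as 0, 15 array probes were tested, 4 were lower and 1 higher, beside 27 (9.54%) lower and 23 (8.13%) higher of all 283 miRNAs tested. The 4 were miR-297c, miR-466g, the probe of miR-297a, miR-466f and miR-669b, and miR-669h-5p (limma adjusted p = 0.028 after Benjamini-Hochberg correction). As miR-669h-5p was under the highest background probe in all 7 samples, its call is not read as a change of the miRNA. The higher one was miR-669f. The median difference was 0.03 over the 15 and 0.03 over all miRNAs tested. Among the 15 are probes at 0 in some neocortex samples, whose differences of up to 3.22 come from setting a 0 against a listed value.

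Another 6 of the 33 probes were listed in all 4 tumors and in 1 or 2 neocortex samples, beside 74 of all 566 miRNA probes. miR-669a, which is known to restrain muscle differentiation genes in mouse heart progenitors, had 5.26 in neocortex 2, a 0 in the other neocortex samples and 4.80, 4.50, 4.64 and 4.67 in tumor 1 to 4. The shared probe of miR-466a-3p and miR-466b-3-3p had 5.01 in neocortex 1, a 0 in neocortex 2 and 3, and 5.47, 4.93, 4.82 and 4.33 in the tumors. miR-466d-3p had 5.02 in neocortex 2, a 0 in neocortex 1 and 3, and 4.64, 4.13, 4.24 and 4.17 in the tumors. A 0 in neocortex 3 leaves room for any level under 5.21 in these probes.

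miR-466c-5p had 5.01, 4.88 and 0 in neocortex 1 to 3 and 4.53, 4.07, 4.03 and 3.84 in tumor 1 to 4. miR-467e had values of 4.84, 0 and 5.38 in neocortex and 4.80, 4.79, 5.30 and 4.73 in tumor. The shared probe of miR-467h, miR-669d and miR-669l had 4.84, 0 and 5.21 in neocortex and 5.23, 4.97, 5.30 and 4.58 in tumor. For all 6 probes the listed neocortex and tumor values on the authors' scaling overlapped or the neocortex values were the higher. In recovered counts every tumor was above every neocortex sample for all 6, where a 0 in neocortex is a count under the cutoff. Total miRNA counts were also higher in every tumor than in every neocortex sample. How many of all miRNA probes were apart in this way was not counted, so this does not set the 6 apart. On the positive-control probes limma called all 6 higher, as it did 259 of all 348 miRNAs tested. On that scaling miR-466d-3p, miR-467e, miR-669a and the probe of miR-467h had no neocortex value above the shared cutoff. They passed the filter only through the tumors, so higher was the only direction possible for them. None of the 6 was above the highest background probe in any neocortex sample, and miR-466c-5p and miR-466d-3p were not in any tumor either. No direction is given.

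A last 7 of the 33 probes were at 0 in all neocortex samples and listed in tumor, 4 of them in all 4 tumors. Of all 566 miRNA probes, 154 were at 0 in all neocortex samples and listed in tumor, 50 of them in all 4 tumors. These counts do not set the array apart. miR-467a, the family member with 10 gene copies, was at 4.40, 5.13, 4.59 and 4.13 in tumor 1 to 4. miR-467c was at 4.80, 4.0, 3.78 and 3.48, and miR-669e at 4.47, 3.45, 3.78 and 3.48. miR-669o was at 3.75, 4.0, 3.78 and 3.84. All of these tumor values were under the neocortex 3 cutoff of 5.21, so none of the 4 was tested with the shared cutoff on the authors' scaling. miR-467a had 22, 48, 28 and 33 counts in tumor 1 to 4, against cutoffs of 14, 10 and 8 counts in neocortex 1 to 3. The highest background probe had 30, 33, 25 and 46 counts in tumor 1 to 4, so miR-467a was above it in tumor 2 and 3 only. In limma miR-467a was called higher on the positive-control probes, as were 259 of all 348 miRNAs tested. With unscaled counts it was also called higher, as were 251 of 327, so these calls do not set it apart. As miR-467a was at 0 in all neocortex samples, it passed the filter only through the tumors, and higher was the only direction possible. miR-467g, miR-669j and miR-669m were listed in 2 or 3 tumors, at 3.35 to 4.40. miR-467b had 4.65 in neocortex 1, 3.35 in tumor 2 and 3.09 in tumor 4 and was not above the cutoff elsewhere.

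The direction of the array depended on what the samples were scaled on. On the positive-control probes 19 array probes passed the filter, of which 12 were called higher by limma and 0 lower (unadjusted p under 0.05: 13 and 0), beside 259 higher and 0 lower of all 348 miRNAs tested. The median difference there was 0.87 over the 19 array probes and 1.17 over all miRNAs tested. On the housekeeping mRNA probes 4 of 5 array probes were lower and 0 higher, beside 132 lower and 1 higher of 191, with medians of -0.94 and -1.03. With recovered counts and no scaling limma called 11 of 18 array probes higher and 0 lower, and an unadjusted p under 0.05 was reached by 13 and 0. Of all 327 miRNAs tested that way 251 were higher and 0 lower, with a median difference of 1.34 beside 0.85 over the 18 array probes. Some array probes called higher both on the positive-control probes and with unscaled counts passed the filter only through the tumors. Among them were miR-467a, miR-467e and miR-669a, for which higher was the only direction possible. RNA input was not measured, and which scaling is the right one was not tested.

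**Figure D3:**
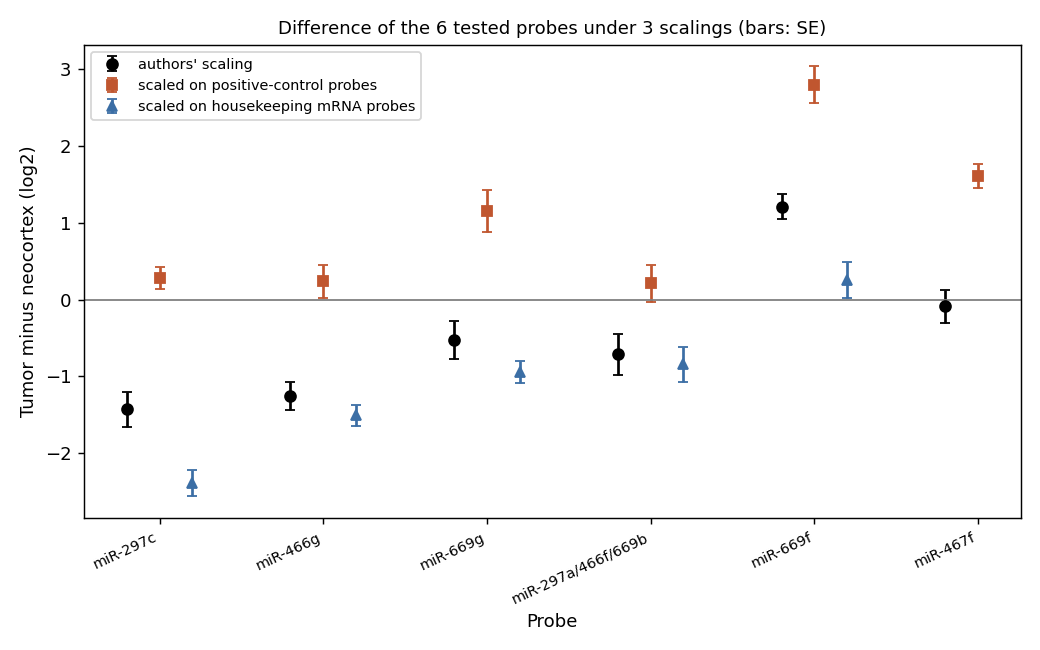
Tumor minus neocortex difference on the log2 scale (vertical axis, bars SE) of the 6 array probes tested, under the authors' scaling (circles), scaling on positive-control probes (squares) and on housekeeping mRNA probes (triangles; miR-467f was too low to test there). miR-669f lies above 0 under all 3, from 0.25 to 2.80, and miR-297c and miR-466g change sign.

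The difference between 2 members within 1 sample does not depend on the scaling, which cancels. miR-669f minus miR-297c was -2.78, -3.27 and -3.89 on the log2 scale in neocortex 1 to 3 and -0.65, -0.65, -1.11 and -0.28 in tumor 1 to 4. The groups were apart by 2.64, with means of -3.31 ± 0.56 (SD, n = 3) and -0.67 ± 0.34 (SD, n = 4). miR-669f minus miR-466g was -0.85, -1.23 and -1.46 in neocortex and 1.06, 1.83, 1.45 and 1.69 in tumor, apart by 2.69. miR-466g minus miR-297c overlapped between the groups, with -2.13 ± 0.26 (SD, n = 3) and -2.18 ± 0.41 (SD, n = 4). The neocortex values of miR-669f in these pairs were under the highest background probe in neocortex 2 and 3, with 15 against 18 and 8 against 12 counts, so the size of the 2 gaps is not exact. These pairs were chosen after their values were seen and carry no test.

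**Figure D4:**
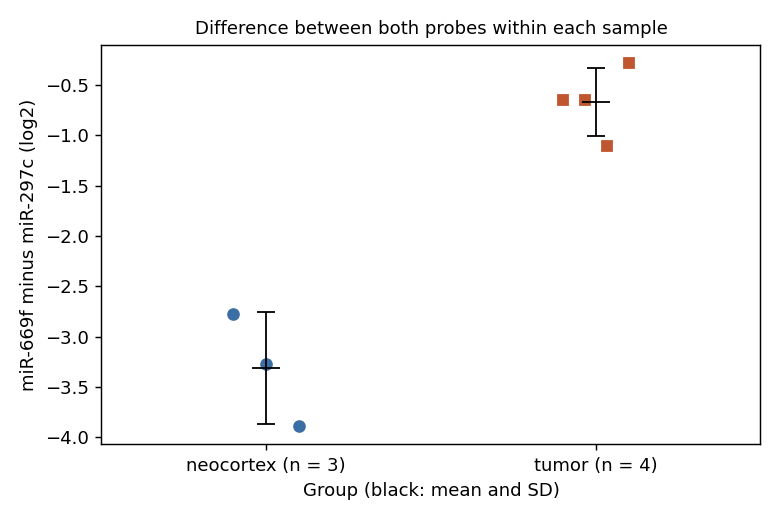
Log2 value of miR-669f minus that of miR-297c in each sample (vertical axis) for neocortex (circles, n = 3) and tumor (squares, n = 4), with mean and SD in black. The neocortex samples lie between -3.89 and -2.78 and the tumors between -1.11 and -0.28.

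Markers of several cell types stood apart between the same groups on the authors' scaling, on which all levels below are given. On that scaling the positive-control probes changed by -1.71 in tumor, and the markers were not compared on other scalings. Of the 2 leukocyte markers, miR-142-3p and miR-223, 1 was higher in every tumor than in every neocortex sample. They had a summed level of 5.46 to 6.23 on the log2 scale in neocortex and 6.77 to 8.46 in tumor, and miR-142-3p was at 0 in neocortex 2 and 3. The 2 oligodendrocyte markers, miR-219 and miR-338-3p, had a summed level of 12.52 to 12.90 in neocortex and 9.93 to 11.17 in tumor. The endothelial marker miR-126-3p lay at 9.33 to 9.73 in neocortex and 10.20 to 11.11 in tumor. The 2 red blood cell markers, miR-451 and miR-144, had a summed level of 7.86 to 8.36 in neocortex and 8.50 to 9.34 in tumor, and 1 of them was higher in every tumor. The summed level of the 3 neuronal miRNAs was 12.64 to 13.47 in neocortex and 12.20 to 12.61 in tumor. Of the muscle and liver miRNAs, miR-1 was under the cutoff in neocortex 1 to 3 and lay at 4.51 to 5.0 in tumor, and miR-122 was at 0, 5.14 and 5.67 in neocortex and at 3.54 to 4.19 in tumor. Their part in the values of miR-669f, miR-297c and miR-466g was not tested. In bulk tissue fewer cells of a type and less of the miRNA per cell cannot be told apart.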

How the data were processed

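Total RNA of 3 neocortex and 4 tumor samples was isolated with a miRNA kit and counted with the nCounter mouse miRNA panel, per the labels. The authors deposited 1 table of log2 values scaled per sample; no normalization, background correction or software is stated in the sources used here. Linear values at the low end were whole multiples of 1 number per sample: 151 to 264 low values a sample, those up to 60 counts, were checked, and 100% came out whole with a tolerance of 0.02 counts added to the decimals' own rounding. Counts were recovered with that number, and larger counts carry the rounding error.

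Array probes were chosen by name, and the members and lists were chosen with earlier results of these data known. The limma package, version 3.58.1 (R 4.3.3), compared tumor with neocortex on the deposited log2 values raised to the shared cutoff of 5.21, for miRNAs above it in at least 3 samples, with lmFit and eBayes, 2-sided p-values and Benjamini-Hochberg adjustment over all miRNAs tested. The shared cutoff equals 20.7, 12.6 and 7.99 counts in neocortex 1 to 3 and 38.5, 50.8, 43.1 and 69.8 in tumor 1 to 4. Control probes were compared with an exact permutation test over 35 splits (absolute difference of means, a form of the test chosen after the values were seen; doubling the smaller tail would put no result of these tests under 0.05). No count model was run, since the deposited values are logs. Values in every sample are given for probes listed in all neocortex or all tumor samples and for called probes. The fit was tested on simulated data. Alternatives were other scalings, filters, a pseudocount of 30 linear units, background subtraction, a replicate block, sex, a trend and robust fit and leaving out each sample. 2 more, counts without scaling and a higher floor, were added after the data were seen. Gene positions and sequences are RefSeq, GRCm38.p6.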

Additional observations from a re-analysis of the deposited data

Results flagged for a closer look

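Of 19 array probes listed in all 4 tumors, 1 had a tumor sample apart from the others. miR-467e had a log2 value of 5.30 in tumor 3, against 4.73 to 4.80 in the other 3 tumors, a gap of 0.88 of the group's range, beyond the limit of Dixon's test for 4 samples. Chance gives about 1 such sample in 20 groups.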

How the results depend on the processing

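Counts of lower and higher array probes (2 and 1) moved with these settings: 4 lower with the values as listed, 3 lower with a pseudocount and 3 with median scaling (both adding the probe of miR-297a, miR-466f and miR-669b), 1 lower with no filter, 1 lower and 0 higher for miRNAs above the shared cutoff in all 7 samples, 0 lower and 12 higher on the positive-control probes, 4 lower and 0 higher on the housekeeping probes, and 0 lower and 11 higher with unscaled counts (chosen after seeing the data). Over all miRNAs tested, 33 were lower and 27 higher of 204 with a pseudocount, and 31 and 29 of 223 with median scaling. With no filter 12 were lower and 6 higher of 566, and 22 and 19 of 148 above the shared cutoff in all 7 samples. That last setting tested only 1 array probe, miR-297c. The shares of the other settings are given above. Leaving out 1 sample gave 2 to 3 lower and 1 to 1 higher of 5 to 7 array probes tested. Over all miRNAs, 21 to 49 were lower and 15 to 24 higher of 192 to 220 tested. Signs turned on the positive-control probes for miR-297c (0.28), miR-466g (0.24), the probe of miR-297a, miR-466f and miR-669b (0.21), miR-669g (1.16) and miR-467f (1.61), and with unscaled counts for the same probes (0.52, 0.47, 0.45, 1.39 and 1.68). miR-467f, near 0, also turned with the values as listed (0.032), with a pseudocount (0.00034), with median scaling (0.061), by quantiles (0.046) and without neocortex 3 (0.26; -0.20 to 0.26 over 5 fits leaving out a sample; without tumor 1 or tumor 3 it was not tested). With no filter miR-297c had an adjusted p of 0.059 (limma, Benjamini-Hochberg). The cause of these shifts was not tested. Replicate numbers did not pair the samples (correlations of deviations of -0.18, 0.25 and 0.13 over 197 miRNAs). With a replicate block miR-297c differed by -1.32 and the calls were 2 and 1, beside 17 lower and 16 higher of 200 miRNAs tested. Low counts limit all other array probes.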
